A study of Mus musculus with 6 samples.

Results

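The 9 genes Hlf, Mecom, Meis1, Gata2, Tal1, Runx1, Prdm16, Gfi1 and Gfi1b encode transcription factors that act in blood stem cells. They were taken by gene name from mouse arrays as every probe other than a control, which gave 12 of 55681 probes. Their transcripts were measured in mouse bone marrow sorted for c-Kit+ Sca-1+ cells that lack CD48 and lineage antigens, a gate in which stem cells are enriched. The comparison sets 3 samples from wild-type mice (WT) against 3 from mice lacking Spred1 (KO), all labelled as strain C57BL/6, with 1 Cy3 array per sample. The Spred1 protein restrains the Ras and ERK pathway, and the comparison asks whether its loss changes these transcripts. The deleted part of Spred1 and the age of the mice are not given in the sources used here. The 3 Spred1 probes differed, KO minus WT on the log2 scale, by 2.44 ± 0.16 SE, -0.98 ± 0.09 SE and -0.14 ± 0.10 SE (limma adjusted p = 0.0133, 0.0543 and 0.59), and without knowledge of the deleted part none of them checks the labels. Whether the 3 samples of a genotype stem from different mice is not stated, so the p-values below rest on a spread between samples that may be technical. In RNA from sorted pools, fewer cells of a type and less RNA per cell cannot be told apart.

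Blood stem cells are held in their state by transcription factors that bind together at shared enhancers and regulate one another. Tal1 and Gata2 act in 1 complex with Lmo2, Ldb1 and an E protein, Runx1 binds DNA with its partner Cbfb, and Meis1 binds with other homeodomain proteins. Mecom and Prdm16 are PR-domain zinc finger proteins needed for stem cell maintenance. Hlf is a PAR bZIP factor whose transcript marks stem cells. Gfi1 and Gfi1b are closely related zinc finger repressors that recruit the demethylase Kdm1a with Rcor1 and histone deacetylases, and both restrain stem cell proliferation. Gfi1 also serves granulocytic and lymphoid development, and Gfi1b erythroid and platelet development.

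Promoter sequences of 4 of the members' annotated starts are shown to accompany the members described most closely below: Gfi1b and Gfi1 measured lowest in KO relative to WT, and Mecom holds the only member probe at which the genotypes did not overlap. Each run is the 250 bases upstream of a start, 5′ to 3′ on the gene's strand, from RefSeq on GRCm38.p6. Capitals mark matches, on either strand, to 6 short letter strings: GATAA (GATA factors), CAGNTG (an E-box, bound by bHLH factors such as Tal1), TGTGGT (RUNX), GGAAGT (ETS), AAATCA (the core recognised by Gfi1 and Gfi1b) and TGACAG (MEIS). The Gfi1b window is chr2:28621983-28622232, minus strand.
Gfi1b: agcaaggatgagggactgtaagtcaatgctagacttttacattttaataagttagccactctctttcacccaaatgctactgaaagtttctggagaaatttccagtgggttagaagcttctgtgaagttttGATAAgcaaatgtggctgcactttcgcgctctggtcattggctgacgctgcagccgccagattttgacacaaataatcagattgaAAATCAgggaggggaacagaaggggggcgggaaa
The Gfi1 window, upstream of the first of its 2 listed starts, is chr5:107725806-107726055, minus strand.
Gfi1: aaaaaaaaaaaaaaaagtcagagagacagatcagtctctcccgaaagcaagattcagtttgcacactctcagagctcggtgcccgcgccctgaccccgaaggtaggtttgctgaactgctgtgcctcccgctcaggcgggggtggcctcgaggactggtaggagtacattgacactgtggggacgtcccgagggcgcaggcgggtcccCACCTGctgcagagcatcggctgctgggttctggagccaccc
The Mecom windows are chr3:30509760-30510009 for the distal start, from which forms carrying the MDS1 part are made, and chr3:30013205-30013454 for the internal start, both on the minus strand.
Mecom distal: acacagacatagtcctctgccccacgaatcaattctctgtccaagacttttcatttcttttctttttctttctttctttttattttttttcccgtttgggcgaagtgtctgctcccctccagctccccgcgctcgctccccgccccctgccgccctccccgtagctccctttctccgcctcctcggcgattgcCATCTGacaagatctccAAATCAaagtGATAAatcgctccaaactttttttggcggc
Mecom internal: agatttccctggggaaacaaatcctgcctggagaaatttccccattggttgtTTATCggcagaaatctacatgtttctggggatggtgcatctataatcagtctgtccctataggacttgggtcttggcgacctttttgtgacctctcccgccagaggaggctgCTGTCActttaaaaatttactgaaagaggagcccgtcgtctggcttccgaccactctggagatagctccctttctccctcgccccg
The Gfi1b window held GATAA at -119 to -115 and AAATCA at -34 to -29, counted from the start. The Mecom distal window held an E-box, AAATCA and GATAA between -57 and -26, and none of these matches overlapped another. All 9 members matched the RefSeq table, with 14 windows. Of these 14, 4 held GATAA, 4 an E-box and 2 AAATCA, while 22.6%, 44.8% and 12.4% of all 32851 windows did. The RUNX, ETS and MEIS strings were each in 1 of the 14, against 14.0%, 19.7% and 15.9% of all windows. A match is a description of the letters and no evidence of binding.

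No member passed the test between genotypes. Values are log2 intensities scaled to each array's 75th percentile, which is 0 on this scale, and they serve to compare arrays at 1 probe, not probes with each other. Of the 12 member probes, 11 were well above background on all 6 arrays and were tested, at least 1 for each of the 9 genes. With limma, adjusted over 27808 probes at a threshold of 0.05, 0 of the 11 rose, beside 0.0216% of all tested probes, and 0 fell, beside 0.0108%. In all 9 probes (0.0324%) passed. At an unadjusted p under 0.05 the count was also 0 of 11, against 11.4% of all tested probes. The 9 calls became 3, 1 and 3 without WT replicates 1, 2 and 3, and 5, 0 and 1 without KO replicates 1, 2 and 3, while the members' count was 0 in each of these fits. Adjusted p of the members lay between 0.454 and 0.902. At the tested probes KO was higher at 4 (49.7% of all tested probes were) and lower at 7 (50.3%), with a median difference of -0.05 beside -0.0015 over all tested probes. The median size of a difference was 0.18 on the log2 scale at member probes and 0.13 at all tested probes, and the median spread within a genotype (pooled SD) was 0.19 and 0.16.

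**Figure D1:**
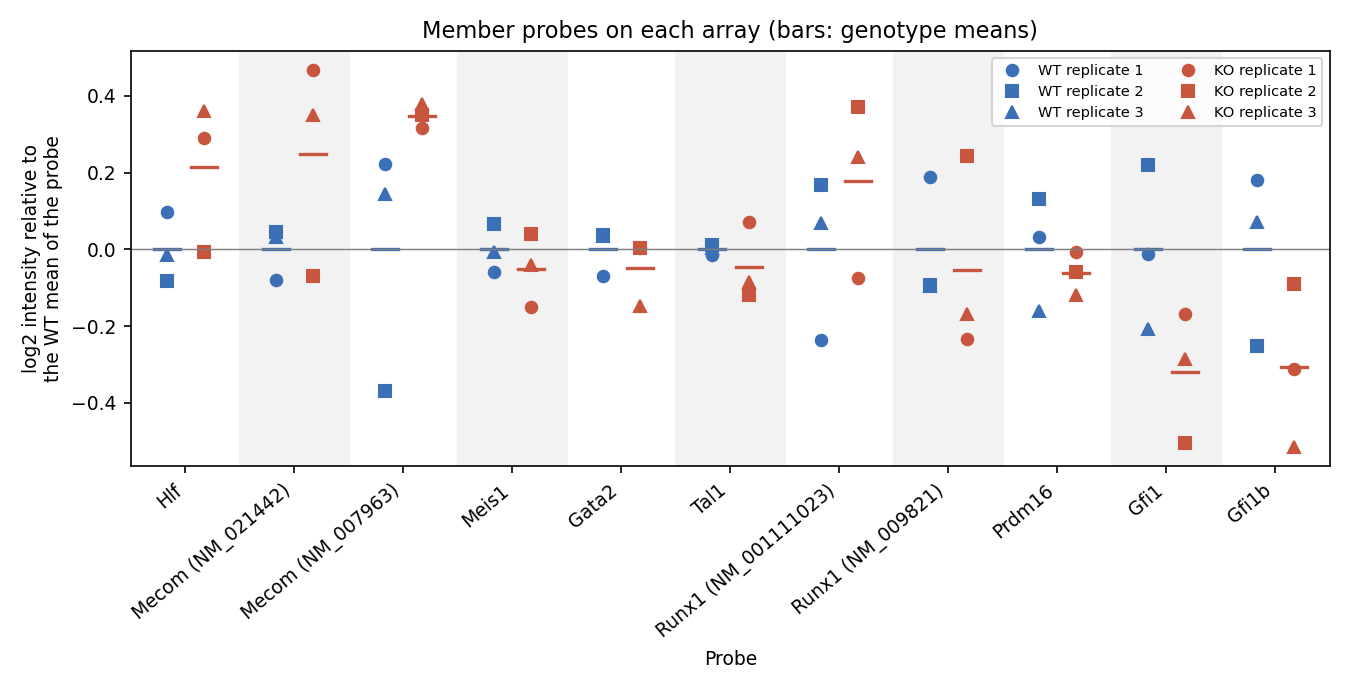
Log2 intensity of the 11 tested member probes on each array, relative to the mean of the 3 WT arrays at that probe (y axis), with 3 WT and 3 KO arrays per probe and bars at the genotype means. The genotypes overlap at 10 of the 11 probes, and at the Mecom probe of NM_007963 all 3 KO arrays lie above all 3 WT arrays.

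Meis1, Gata2 and Tal1 were the steadiest members, and their intervals leave room for small differences only. Meis1, a homeodomain factor, was read by a probe at chr11:18780695-18780754 (mm9, the build of all probe positions here). It measured 5.86, 5.99 and 5.92 on the WT arrays and 5.77, 5.96 and 5.88 on the KO arrays. The arrays of the genotypes overlapped, with KO replicate 1 the lowest of the 6. The difference, KO minus WT, was -0.05 ± 0.09 SE, and its 95% interval runs from 1.21-fold lower to 1.13-fold higher in KO. Gata2, the zinc finger factor that stem cells depend on for survival, was read at chr6:88156362-88156421. It measured 4.0, 4.11 and 4.10 in WT and 4.07, 4.07 and 3.92 in KO. KO replicate 3 was the lowest array and WT replicate 1 the next, so the groups overlapped. The difference was -0.05 ± 0.09 SE, with an interval from 1.20-fold lower to 1.12-fold higher. Tal1, the bHLH factor that specifies blood cells in the embryo, was read at chr4:114744219-114744278. It measured 4.03, 4.06 and 4.05 in WT and 4.12, 3.93 and 3.96 in KO. The WT arrays lay close together inside the range of the KO arrays, and the difference was -0.04 ± 0.09 SE, with an interval from 1.20-fold lower to 1.12-fold higher. The pooled SD of these 3 probes was 0.072 to 0.081, below that of at least 85% of tested probes. These intervals are those of single probes and are not adjusted for the number of probes.

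The PR-domain genes differed from each other in how their probes lay. Prdm16, at chr4:153690254-153690313, measured 1.37, 1.47 and 1.18 in WT and 1.34, 1.29 and 1.22 in KO. The KO arrays fell within the WT range, and the difference was -0.06 ± 0.10 SE. Its interval ran from 1.24-fold lower to 1.14-fold higher. Mecom had 3 probes. The probe annotated to NM_007963, a variant that carries the EVI1 part, lies at chr3:29876185-29876244. It measured -0.82, -1.41 and -0.90 in WT and -0.73, -0.70 and -0.67 in KO. The KO arrays lay closely together above all WT arrays, with WT replicate 2 far below the others. The difference was 0.35 ± 0.16 SE (limma adjusted p = 0.463; exact two-sided permutation p = 0.1, the smallest that 3 against 3 arrays allow). It was 0.16 without WT replicate 2 and 0.46 without WT replicate 1. Groups wholly apart with KO above were found at 9.23% of tested probes, so 1 of 11 lies near the background.

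The second Mecom probe, annotated to NM_021442, the short variant named MDS1, lies at chr3:30135491-30135550. It measured 0.01, 0.14 and 0.12 in WT and 0.56, 0.02 and 0.44 in KO. KO replicates 1 and 3 were the highest arrays and KO replicate 2 lay among the WT arrays. The difference was 0.25 ± 0.15 SE (limma adjusted p = 0.536; exact two-sided permutation p = 0.3). Leaving out KO replicate 2 gave 0.41, with an unadjusted limma p of 0.0082 (adjusted p = 0.26), and leaving out KO replicate 1 gave 0.14. The differences at the 2 Mecom probes were 0.10 apart (exact two-sided permutation p = 0.8). The third probe, at chr3:30445665-30445724 and annotated to ENSMUST00000172754, stayed below the scanner's limit for well above background on all 6 arrays and was not tested.

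Hlf had higher values in KO without passing. Its probe at chr11:90200696-90200755 measured 5.88, 5.70 and 5.76 in WT and 6.07, 5.77 and 6.14 in KO. KO replicates 1 and 3 lay above all WT arrays, and KO replicate 2 lay between WT replicates 3 and 1. The difference was 0.21 ± 0.12 SE (limma adjusted p = 0.52; exact two-sided permutation p = 0.2), with an interval from 1.06-fold lower to 1.42-fold higher. It ran from 0.14 without KO replicate 3 to 0.33 without KO replicate 2. KO replicates 1 and 3 were thus the highest KO arrays both for Hlf and for the MDS1 probe of Mecom.

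Runx1, the DNA-binding subunit of core binding factor, was read by 2 probes that pointed different ways. The probe at chr16:92605785-92605844, annotated to NM_001111023, measured 1.83, 2.23 and 2.13 in WT and 1.99, 2.43 and 2.30 in KO. WT replicate 1 was the lowest array and the difference was 0.18 ± 0.16 SE (limma adjusted p = 0.654). It ran from 0.06 without WT replicate 1 to 0.31 without KO replicate 1. The probe at chr16:92604413-92604472, annotated to NM_009821, measured 2.29, 2.01 and 2.01 in WT and 1.87, 2.35 and 1.94 in KO. Here WT replicate 1 was the highest WT array, and the difference was -0.05 ± 0.16 SE (limma adjusted p = 0.902). The 2 differences were 0.23 apart (exact two-sided permutation p = 0.6), within the spread between arrays. The sign at the second probe turned when replicate 1 of either genotype or KO replicate 3 was left out, and under normexp with quantile normalization, so it gives Runx1 no direction.

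**Figure D2:**
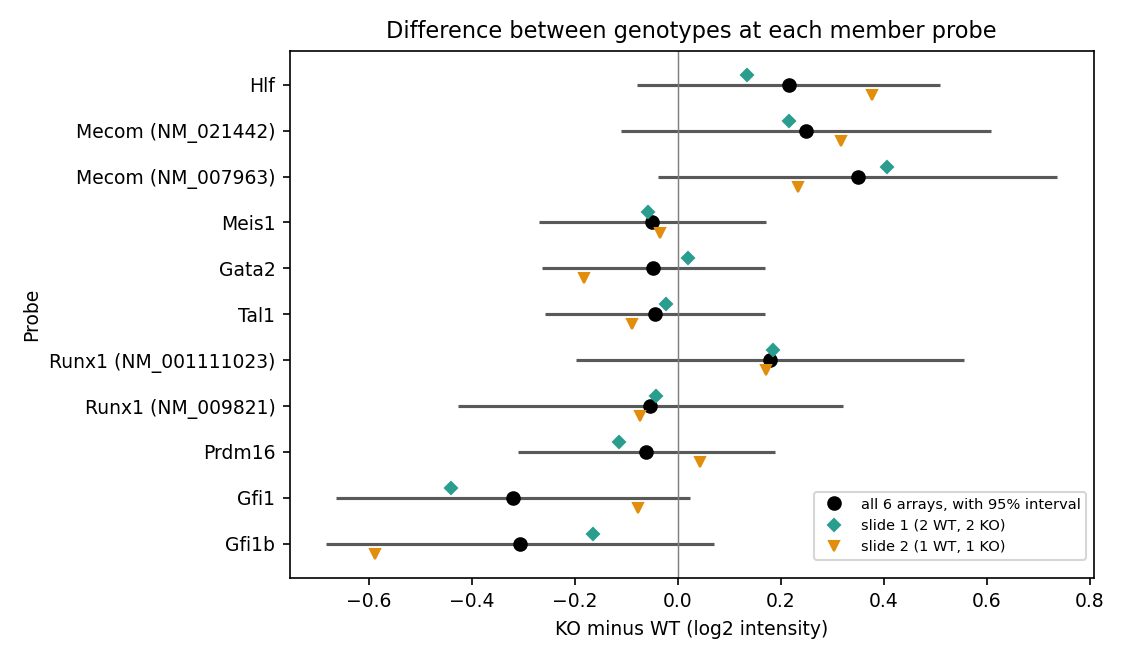
Difference KO minus WT in log2 intensity (x axis) at the 11 tested member probes (y axis): black points are all 6 arrays with their 95% intervals from limma, diamonds the arrays of slide 1 and triangles those of slide 2. Every interval spans 0, and those of Meis1, Gata2 and Tal1 are the narrowest.

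Gfi1 and Gfi1b had the lowest values in KO relative to WT, and neither passed. Gfi1, at chr5:108145719-108145778, measured 3.76, 3.99 and 3.56 in WT and 3.60, 3.26 and 3.48 in KO. WT replicates 1 and 2 lay above all KO arrays, but WT replicate 3 lay below KO replicate 1. KO stood at 80.1% of WT, a difference of -0.32 ± 0.14 SE (limma adjusted p = 0.454; exact two-sided permutation p = 0.2), with an interval from 1.58-fold lower to 1.02-fold higher. Gfi1b, at chr2:28464982-28465041, measured 2.59, 2.16 and 2.48 in WT and 2.10, 2.32 and 1.90 in KO. WT replicates 1 and 3 lay above all KO arrays, and WT replicate 2 lay below KO replicate 2. KO stood at 80.9% of WT, a difference of -0.31 ± 0.16 SE (limma adjusted p = 0.49; exact two-sided permutation p = 0.2), with an interval from 1.6-fold lower to 1.05-fold higher.

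The arrays that carried the lower values differed between these genes. For Gfi1 the lowest array was KO replicate 2, and for Gfi1b it was KO replicate 3, with KO replicate 2 the highest KO array. The arrays lay on 2 slides, slide 1 with replicates 1 and 2 and slide 2 with replicate 3 of each genotype. Within slides 1 and 2 the difference was -0.44 and -0.08 for Gfi1, and -0.17 and -0.59 for Gfi1b. With 1 array taken out at a time it ran from -0.42 to -0.21 for Gfi1, and from -0.43 (without WT replicate 2) to -0.20 (without KO replicate 3) for Gfi1b. For Gfi1 the extremes arose without WT replicate 3 and without WT replicate 2.

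**Figure D3:**
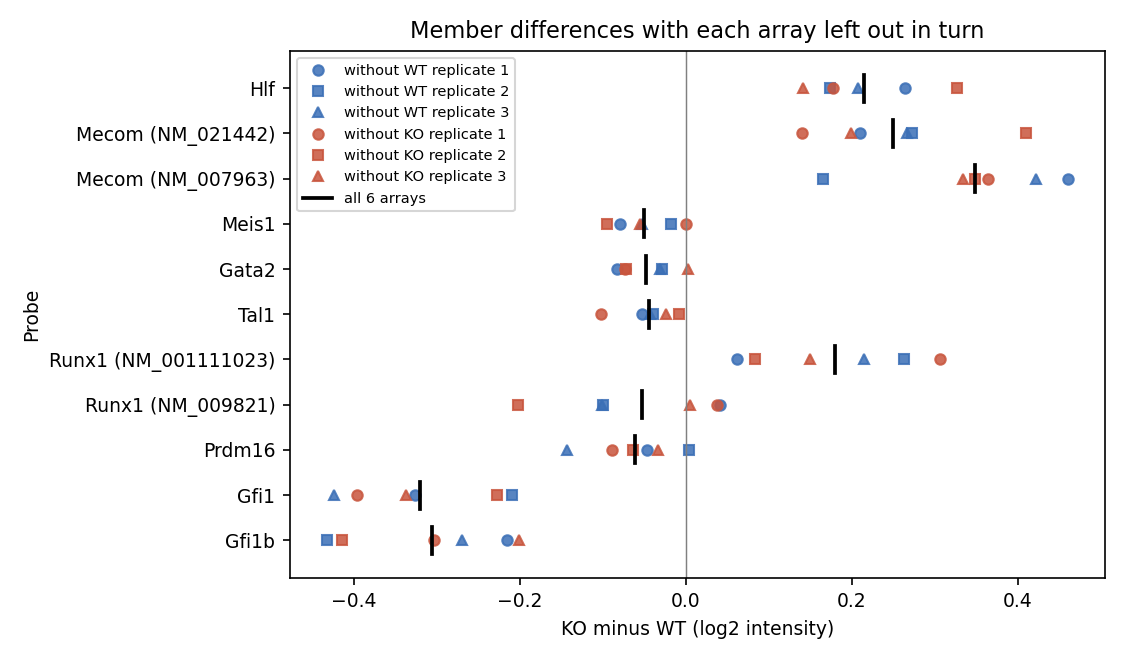
Difference KO minus WT in log2 intensity (x axis) at each tested member probe (y axis) with each of the 6 arrays left out in turn, and with all arrays (black bars). The points of Hlf, Mecom and the first Runx1 probe stay above 0 and those of Tal1, Gfi1 and Gfi1b below 0, while those of Meis1, Gata2, Prdm16 and the second Runx1 probe reach both sides.

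Markers of cell types in which members also act moved between arrays. WT replicate 1 stood apart in the 10 neutrophil markers, all well above background on all arrays: their summed level (the log2 of their added signals) was 6.56 there, against 8.97 and 8.87 for WT replicates 2 and 3 and 8.34 to 8.73 for KO. With all arrays 10 of 10 had higher values in KO (median difference 0.35), and without WT replicate 1 all 10 had lower values (median -0.42), so the direction rests on that array. None had an unadjusted p under 0.05. Gfi1, which acts in the neutrophil lineage, measured 3.76 on WT replicate 1, between the other WT arrays, and its difference without that array was -0.33. The part of neutrophil transcripts in the Gfi1 values was not tested. The summed level of 10 mast cell and basophil markers, a lineage that depends on Gata2, was 0.34, 2.90 and 1.35 in WT and 1.33 to 1.78 in KO, and Cma1, Mcpt4 and Ms4a2 were not well above background on any array. The summed level of 10 erythroid markers was 6.33 to 6.66 in WT and 6.32 to 6.40 in KO. Car2, the largest part of it, measured 6.02, 5.63 and 5.26 in WT, while Hba-a1 measured 3.22, 5.37 and 5.18. Of 8 tested, 4 had higher values in KO (median difference 0.03), and 3 without WT replicate 1 (median -0.25). Car1 and Ermap lay wholly higher in KO, with differences of 0.45 ± 0.22 SE and 0.17 ± 0.08 SE (limma adjusted p = 0.473 and 0.482). The summed level of 10 megakaryocyte markers was 4.74 to 4.82 in WT and 4.61 to 4.96 in KO. Of 9 tested, Gp1bb was higher and Vwf lower at an unadjusted limma p under 0.05, both without overlap. Their differences were 0.33 ± 0.11 SE and -0.31 ± 0.11 SE (limma adjusted p = 0.4 and 0.403). At an unadjusted p under 0.05, 6.72% of all tested probes were higher and 4.73% lower in KO. Wholly higher in KO were 9.23% of all tested probes, and wholly lower 9.45%. Of the erythroid markers, Klf1 was well above background on 1 KO array and on no WT array. The part of these markers in the Gata2, Tal1 and Gfi1b values was not tested. The gate genes Kit, Ly6a (Sca-1) and Cd48 were well above background on all 6 arrays, with differences of -0.09 ± 0.13 SE, 0.08 ± 0.17 SE and 0.12 ± 0.23 SE. The gate excludes cells by CD48 protein, and the Cd48 transcript stood at -0.19 ± 0.42 (SD, n = 3) in WT. Of the 10 gate and stem cell markers, 4 had higher and 6 lower values in KO, with a median difference of -0.12, and 0 passed the adjusted threshold. At an unadjusted limma p under 0.05, Esam and Slamf1, surface proteins of stem cells, were lower, and Flt3, a receptor of multipotent and lymphoid progenitors, was higher. Their differences were -0.43 ± 0.12 SE, -0.56 ± 0.22 SE and 0.42 ± 0.13 SE (limma adjusted p = 0.393, 0.427 and 0.396), and the genotypes did not overlap for Esam and Flt3. Of the 10 markers, 1 lay wholly higher and 3 wholly lower in KO, beside 9.23% and 9.45% of all tested probes. The part of these markers in the members' values was not tested.

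Among 74 tested genes related to the members, taken from 5 lists and read at the brightest probe of each, 0 rose and 0 fell with limma. At an unadjusted p under 0.05, 3 were higher and 2 lower in KO, where 6.72% and 4.73% of all tested probes were. The 19 factors that bind with the members were all tested, with 8 higher and 11 lower values and a median difference of -0.01. Of the Tal1 and Gata2 complex, Lmo2 differed by -0.01 ± 0.09 SE and Lyl1, the bHLH relative of Tal1, by -0.07 ± 0.12 SE. The Runx1 partner Cbfb differed by -0.16 ± 0.10 SE. The ETS factors Fli1 and Erg differed by -0.17 ± 0.11 SE and 0.10 ± 0.13 SE, and the myeloid ETS factor Spi1 by -0.09 ± 0.11 SE. No one direction ran through the partner factors.

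Corepressors, among them enzymes and scaffolds that Gfi1, Gfi1b and the Tal1 complex recruit, had slightly lower values in KO at 11 of 12 genes. None fell past the threshold. Their median difference was -0.12, between -0.17 for Ncor1 and 0.01 for Hdac2. Of all tested probes 50.3% had lower values in KO, and of the 13402 brighter than the 75th percentile 59.3% did, with a median of -0.04. Kdm1a, the demethylase, measured 3.47, 3.52 and 3.51 in WT and 3.35, 3.39 and 3.38 in KO. The deacetylase gene Hdac1 measured 5.39, 5.31 and 5.37 in WT and 5.15, 5.28 and 5.18 in KO. Both were lower on every KO array than on every WT array, as were Ehmt2 and Sin3a, which makes 4 of the 12 genes, against 9.45% of all tested probes. These 4 were all brighter than the 75th percentile, and the share among such probes alone was not counted. The differences of Kdm1a and Hdac1 were -0.13 ± 0.08 SE and -0.15 ± 0.08 SE (limma adjusted p = 0.541 and 0.506; exact two-sided permutation p = 0.1 for each). With each array left out in turn, 10 to 12 of the 12 had lower values.

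Of 15 close relatives of the members, 12 could be tested, with 4 higher and 8 lower values and a median difference of -0.05. Runx2, the paralog of Runx1 known for bone formation, had higher values on all KO arrays than on all WT arrays, with a difference of 0.29 ± 0.13 SE (limma adjusted p = 0.447). It was 0.41 within slide 1, 0.05 within slide 2 and 0.18 without WT replicate 1. Meis3 measured 0.26 ± 0.14 SE higher (limma adjusted p = 0.492), and Gata3, a paralog of Gata2 known for T cells, differed by -0.19 ± 0.10 SE (limma adjusted p = 0.512). Leaving out WT replicate 3 gave 0.13 and -0.11. Gata1, the erythroid paralog of Gata2, differed by -0.16 ± 0.23 SE, with KO arrays spread from -1.36 to -0.39. Meis2 and Pknox2 were not well above background on any array, and Tal2 on 1 KO array only.

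Among 15 other stem cell factors, 9 had higher and 6 lower values, with a median of 0.04. At an unadjusted p under 0.05, Nkx2-3, Ikzf1 and Rora were higher and Nfix lower. The homeobox gene Nkx2-3 measured 3.03, 2.94 and 3.06 in WT and 3.21, 3.39 and 3.53 in KO. All KO arrays lay above all WT arrays, and the difference was 0.36 ± 0.11 SE (limma adjusted p = 0.393). Ikzf1, a zinc finger factor of lymphoid commitment, measured 2.71, 2.81 and 2.75 in WT and 2.95, 3.0 and 3.03 in KO. This too was a gap without overlap, of 0.23 ± 0.08 SE (limma adjusted p = 0.401). Rora differed by 0.33 ± 0.14 SE (limma adjusted p = 0.433), also without overlap. Its difference was 0.18 within slide 1 and 0.64 within slide 2, with WT replicate 3 the lowest array at -0.47. Nfix, a nuclear factor that supports stem cell survival, differed by -0.27 ± 0.10 SE (limma adjusted p = 0.424), with all KO arrays below all WT arrays. Of the 15 genes, 3 thus lay wholly higher and 1 wholly lower in KO, where 9.23% and 9.45% of all tested probes did. Mycn, a MYC family factor, differed by -0.48 ± 0.22 SE (limma adjusted p = 0.452), with WT replicate 1 the highest array at 4.09, and by -0.27 without that array.

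Genes reported downstream of these factors held the widest difference of the 5 lists. Of 16, 8 had higher and 8 lower values, with a median of -0.01. Socs2, an inhibitor of cytokine receptor signalling, measured 1.15, 0.65 and 0.79 in WT and -0.34, 0.14 and -0.54 in KO. Every KO array lay below every WT array, and KO stood at 46.3% of WT. The difference was -1.11 ± 0.21 SE (limma p = 0.0012, adjusted p = 0.327; exact two-sided permutation p = 0.1), and it was -1.0 within slide 1 and -1.33 within slide 2. Itga2b differed by -0.33 ± 0.14 SE and Hif1a by -0.40 ± 0.18 SE (limma adjusted p = 0.441 and 0.455), and Hif1a by -0.22 without WT replicate 1. Csf1r, the receptor gene of the monocyte lineage, differed by 0.36 ± 0.29 SE, with 0.69 within slide 1 and -0.32 within slide 2, and it was 0.02 without WT replicate 1. The summed level of 11 monocyte and macrophage markers, Csf1r among them, was 2.30 for WT replicate 1, 3.12 and 3.29 for WT replicates 2 and 3, and 3.09 to 3.41 for KO. Of these 11 markers all had higher values in KO with all arrays, and 6 did without WT replicate 1. Only Emr1 had an unadjusted limma p under 0.05, where 6.72% of all tested probes were higher. It alone lay wholly higher in KO, as did 9.23% of all tested probes. Its difference was 0.76 ± 0.25 SE (limma adjusted p = 0.4), with 0.86 within slide 1 and 0.57 within slide 2, which lacks WT replicate 1. The part of monocyte transcripts in the Csf1r value was not tested.

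**Figure D4:**
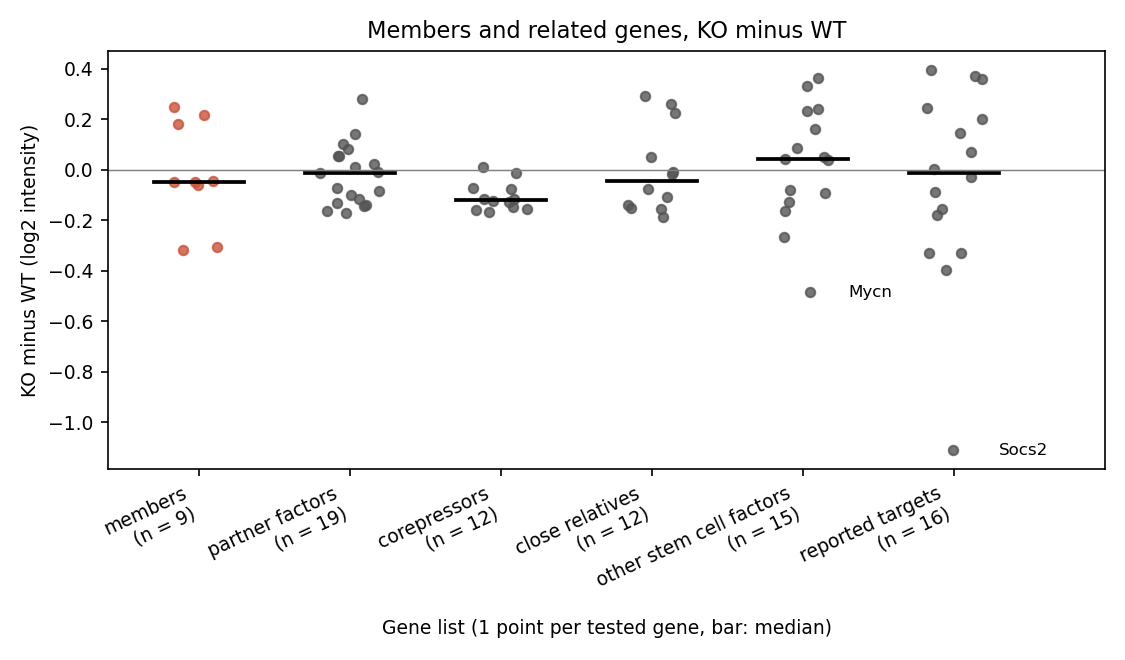
Difference KO minus WT in log2 intensity (y axis) of each tested gene at its brightest probe, for the 9 members and 5 lists of related genes (x axis), with bars at the medians. The medians lie between -0.12 and 0.04, and Socs2 at -1.11 and Mycn at -0.48 (-0.27 without WT replicate 1) lie lowest.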

How the data were processed

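Sorted cells were profiled on Agilent 1-colour arrays, 3 WT and 3 KO, with genes named by the array's design. Per the file headers, Agilent Feature Extraction 10.7.3.1 gave each spot a processed intensity after a spatial and a multiplicative detrending of the array, and no step between arrays is named there. In the authors' deposited table each array's values equalled this intensity over a single divisor (304 to 368), so they are linear and uncentred, with column medians of 0.0638 to 0.075. It served as an alternative.

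Of 59305 spots other than controls, 92 to 155 per array were left out as outliers and 0 were saturated. Spots of a probe were averaged. Log2 intensities were scaled to the 75th percentile, and 27808 of 55681 probes were tested, those well above background on every array of WT, of KO or of both, with limma 3.58.1 in R 4.3.3 (KO minus WT, Benjamini-Hochberg), checked on simulated data. Probe signal over background and 3 arrays per genotype limit the precision. Arrays correlated at 0.987 to 0.994 across probes.

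Members and lists were chosen with earlier results of these data known. Named were all members and, per list, the 3 smallest p in each direction with some fixed genes, of which the text prints a part. The comparison between probes of 1 gene and the marker lists without each array were added after values were seen. So was the naming of Esam, Slamf1, Flt3, Car1, Car2, Ermap, Hba-a1, Gp1bb, Vwf, Emr1, Ehmt2 and Sin3a. Some genes of the lists are not reported here by name. Alternatives were quantile normalization, normexp (offset 50), other filters, 1 probe per gene, slide and replicate blocks, array weights and each array left out.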

Additional observations from a re-analysis of the deposited data

How the results depend on the processing

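No member and no related gene passed under any of the 17 alternatives run, and the smallest adjusted limma p of a member in any of them was 0.26 (Mecom, NM_021442, without KO replicate 2). At an unadjusted p under 0.05 members counted 2 lower and 1 higher under normexp with the 75th percentile, and 0 lower and 2 higher with array weights. They counted 1 lower and 2 higher without KO replicate 2, 1 higher without WT replicate 1, and 1 lower each without WT replicate 2, WT replicate 3 and KO replicate 1. Of all 27808 tested probes 3183 had such a p in the main fit, 4014 under that normexp setting and 3949 with array weights. Without KO replicates 2 and 1 the count over all probes was 4230 and 2199. Without WT replicates 1, 2 and 3 it was 2091, 3317 and 2774. Over all probes, the calls (6 higher, 3 lower) became 3 higher and 0 lower among probes well above background on all 6 arrays, and 0 and 0 without a filter, within slide 1 and with the replicate block. They were 3 higher with 1 probe per gene name, and 5 lower under normexp with either scaling and with array weights. Leaving out single arrays gave 0 to 3 higher and 0 to 2 lower calls.

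Signs of small differences turned. The second Runx1 probe measured 0.011 under normexp with quantile normalization, Gata2 0.020 within slide 1, and Hdac2 -0.034 and -0.018 under quantile normalization without and with normexp. Cdkn1a and Spi1 measured -0.11 and 0.0049 within slide 1. With arrays left out, the range was -0.20 to 0.041 for that Runx1 probe, -0.095 to 0.00011 for Meis1, -0.082 to 0.0031 for Gata2 and -0.14 to 0.0034 for Prdm16. It was -0.11 to 0.12 for Hdac2, -0.0011 to 0.59 for Cdkn1a, -0.041 to 0.039 for Lmo2, -0.15 to 0.016 for Lyl1, -0.40 to 0.083 for Gata1, -0.20 to 0.020 for Kit, -0.12 to 0.26 for Cd48 and -0.034 to 0.23 for Ly6a. The cause was not tested.

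Deviations of same-numbered arrays correlated at -0.018, 0.14 and 0.084, and 3 of 6 arrays correlated best with their own number, so the numbers were not taken to pair the samples. With the replicate block, 0 probes were higher and 0 lower in KO.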
